A study of Saccharomyces cerevisiae with 21 samples.

Results

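The surroundings of the nuclear tRNA genes of budding yeast were described in maps of covalent complexes between Spo11 and DNA, made by CC-seq, in which the ends of DNA that carry a bound protein are enriched and sequenced. The members were all tRNA genes that the RefSeq annotation of the R64 reference places on the nuclear chromosomes other than chromosome III, which carries engineered inserts in these strains, and they numbered 265 of 275. Of the 265 genes, 138 lie on the Watson and 127 on the Crick strand, their length is between 71 and 133 bp with a median of 73 bp, 43 have a gene symbol, and the others are named by locus tag. Each gene was taken with 1 kb on either side, turned to the strand of the gene. All 265 surroundings held enough reads to be tested, 35 of them overlap the surroundings of another tRNA gene, and 24 have a 100 bp bin without a read in the control map.

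RNA polymerase III transcribes tRNA genes from a promoter that lies within the gene. The factor TFIIIC binds the A and B boxes inside the transcribed stretch and places TFIIIB just upstream of the first base, where TFIIIB stays through many rounds of transcription and recruits the polymerase. These complexes keep nucleosomes off the gene, and the stretch upstream of tRNA genes is the preferred target of the Ty1 retrotransposon. Spo11 makes the DNA double-strand breaks (DSBs) that start meiotic recombination and stays bound to the 5′ ends it makes; it is known to cut mostly in the open chromatin of promoters of protein-coding genes.

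All strains are of the SK1 background and lack *SAE2*, so that Spo11 is not removed from the DNA ends, and all cultures were taken 6 h into meiosis. The strain with no further deletion of interest, *sae2*Δ, gave 5 replicates. It was set beside *sae2*Δ *ndt80*Δ, with 4 replicates, which lacks the transcription factor Ndt80 and so does not leave prophase. The strain *sae2*Δ *tel1*Δ, with 4 replicates, lacks Tel1, the kinase that restrains further DSBs near a DSB, and the strain that lacks *SAE2*, *NDT80* and *TEL1* gave 5 replicates. Since *sae2*Δ is common to all, the last 3 are called *ndt80*Δ, *tel1*Δ and *ndt80*Δ *tel1*Δ from here on, and where 4 values follow each other *sae2*Δ comes first, then *ndt80*Δ, then *tel1*Δ and last *ndt80*Δ *tel1*Δ. These 4 genotypes also carry *nuc1*::*LEU2*. The baseline was 1 library of a strain with *sae2*Δ, *ndt80*Δ and *spo11-Y135F*, whose Spo11 cannot cut and whose strain description lists no change at *NUC1*, so that the difference between active and inactive Spo11 and the difference at *NUC1* cannot be told apart. Each genotype is 1 strain, and the reads of SK1 cells were placed on a reference made from another strain, whose Ty and solo LTR elements near tRNA genes can differ. Values are reads per 1000000 nuclear reads outside the ribosomal DNA, per kb (RPM per kb), and an even spread over the genome would give 82.9 RPM per kb.

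Depth ran from 1530684 to 8634134 reads per library in *sae2*Δ, from 4428443 to 5818082 in *ndt80*Δ, from 3768002 to 5426685 in *tel1*Δ and from 3639390 to 5507974 in *ndt80*Δ *tel1*Δ, and it was 8613208 in the *spo11-Y135F* library. The level over long ORFs, which is taken as background, was 9.84 to 21.2 RPM per kb in *sae2*Δ and 20.7 to 32.8 in *tel1*Δ, and it varied more among replicates of *ndt80*Δ (5.44 to 51.6) and *ndt80*Δ *tel1*Δ (2.04 to 44.8). In the *spo11-Y135F* library it was 72.96 RPM per kb, 88.0% of an even spread. Levels are shares of the reads of a library, so a ratio to this control below 1 does not show fewer ends than in the control. The *ndt80*Δ replicates 3 and 4 and the *ndt80*Δ *tel1*Δ replicates 3 to 5 came from time-course series. By the names of the deposited maps, *ndt80*Δ replicate 3 and *ndt80*Δ *tel1*Δ replicate 4 share a series and have like background levels (44.3 and 44.8 RPM per kb), and *ndt80*Δ replicate 4 and *ndt80*Δ *tel1*Δ replicate 5 share another (5.44 and 2.04). Reads in an inner stretch of *NDT80* numbered 0 to 1 in both *ndt80*Δ genotypes with active Spo11, 20 to 124 in the genotypes that keep *NDT80* and 9 in the *spo11-Y135F* library, and reads in such a stretch of *TEL1* numbered 0 to 34 in the *tel1*Δ genotypes against 78 to 974 in the other 2 genotypes with active Spo11.

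The body of the tRNA gene was the highest part of its surroundings in all 4 genotypes with active Spo11 when the median over the 265 genes was taken, and it was not raised in the *spo11-Y135F* map. Its lead over the first 100 bp downstream was small in *ndt80*Δ (73.7 against 69.4 RPM per kb) and in *ndt80*Δ *tel1*Δ (78.2 against 76.9). In *sae2*Δ these medians were 80.5 and 61.6, and in *tel1*Δ 101.0 and 80.0. The mean body level over the 265 genes was 207.6 ± 27.5 RPM per kb in *sae2*Δ (SD, n = 5), 156.2 ± 21.1 in *ndt80*Δ (n = 4), 270.1 ± 37.0 in *tel1*Δ (n = 4) and 213.6 ± 48.0 in *ndt80*Δ *tel1*Δ (n = 5), against 61.7 in the control library. In ratio to the control these levels were 3.36 ± 0.44, 2.53 ± 0.34, 4.38 ± 0.60 and 3.46 ± 0.78. The lowest replicate of any of the 4 genotypes stood at 136.7 RPM per kb, above the control. Among the 4 genotypes the ranges of the mean overlapped between neighbours in level, and the *tel1*Δ replicates (216.6 to 300.6) lay above all *ndt80*Δ replicates (136.7 to 183.5).

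The flanks were much nearer to the control. The mean over the 1 kb upstream was 82.5 ± 1.96, 82.6 ± 5.49, 85.7 ± 2.32 and 82.4 ± 4.01 RPM per kb in the 4 genotypes, against 68.8 in the control, and the mean over the 1 kb downstream was 106.4 ± 2.28, 100.5 ± 5.92, 113.1 ± 2.73 and 110.5 ± 6.72, against 82.4. The body therefore held 2.52, 1.89, 3.15 and 2.59 times the upstream level and 1.95, 1.55, 2.38 and 1.92 times the downstream level, whereas in the control the body stood at 0.898 of the upstream and 0.749 of the downstream level. The median gene was lower than the mean, with bodies at 80.5, 73.7, 101.0 and 78.2 RPM per kb and a control of 60.4, and its upstream flank at 26.4, 37.7, 37.8 and 31.03 lay below the control median of 71.5. Most of the mean in the flanks thus came from a minority of genes.

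**Figure D1:**
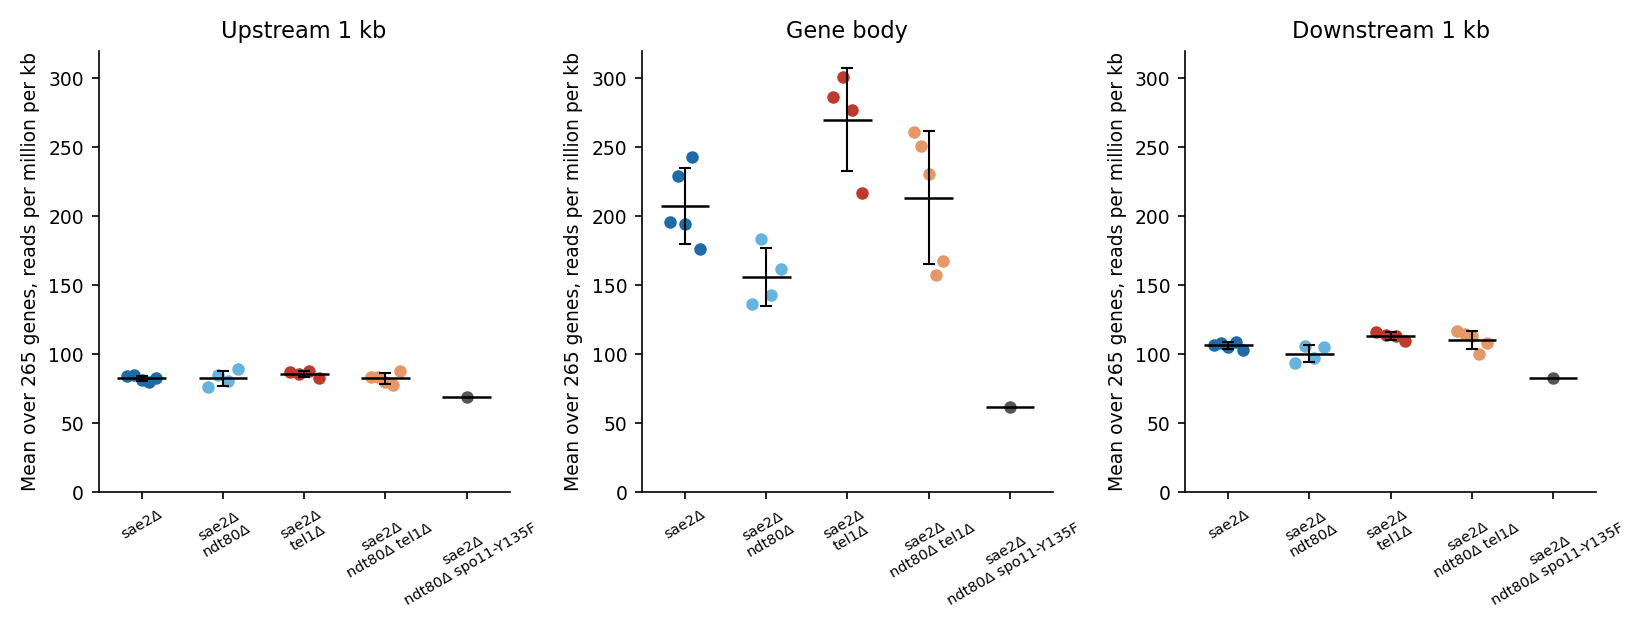
Mean level over 265 tRNA genes in RPM per kb (y axis) for the 1 kb upstream, the gene body and the 1 kb downstream, by genotype (x axis). Points are replicates, horizontal lines are means and bars are SDs; the *spo11-Y135F* control is 1 library, and all replicates of the 4 other genotypes lie above it in the gene body.

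In 100 bp steps the mean was raised on both sides of the gene and more widely on the downstream side. In *sae2*Δ it was 40.8 RPM per kb in the third 100 bp upstream, 118 in the last 100 bp before the gene, 179 in the first 100 bp after it, 195.5 in the next and still 165 in the fourth, before it came to 85.5 in the following step and to 40.1 from 701 to 800 bp downstream. The *ndt80*Δ *tel1*Δ genotype gave 150 RPM per kb in the last 100 bp before the gene and 217 in each of the first 2 steps after it, beside a body mean of 213.6. In *ndt80*Δ the first 2 steps after the gene held 171 and 176, above its body mean of 156. The control stayed between 59.2 and 86.3 in all steps outside the body. The medians kept the rise at the gene body and lost most of the downstream shoulder.

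**Figure D2:**
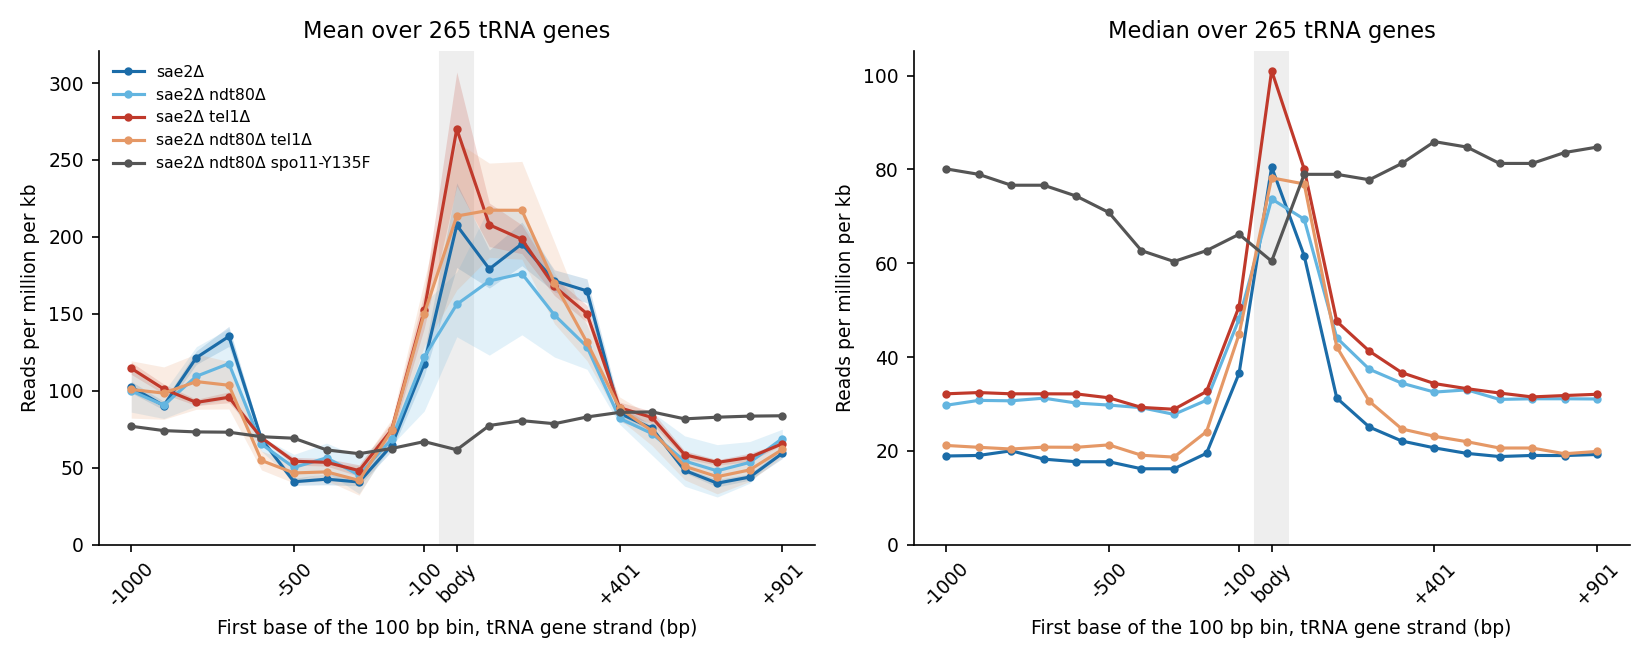
Level in RPM per kb (y axis) in 100 bp bins around 265 tRNA genes and in the gene body (x axis, first base of the bin on the tRNA gene's strand), as the mean (left, with the SD between replicates as a band) and as the median over genes (right). The body is highest in the medians of the 4 Spo11-active genotypes and is not raised in the *spo11-Y135F* control. In *ndt80*Δ and *ndt80*Δ *tel1*Δ its median is only slightly above that of the first bin downstream.

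In 10 bp steps the upstream side was not smooth. From 100 to 71 bp upstream the mean was 181, 179, 191 and 196 RPM per kb in the 4 genotypes. It dropped to 72.7, 84.1, 114 and 112 from 70 to 11 bp upstream. From 10 bp upstream to 20 bp inside the gene it was 193, 163, 259 and 216. TFIIIB is known to bind next to the gene on this side, and any link between it and the dip was not tested. Past the gene it was 108, 114, 144 and 142 in the first 30 bp and 201, 184, 214 and 231 from 31 to 200 bp downstream. In the control these stretches held 66.7, 67.7, 61.6, 76.2 and 79.6 RPM per kb. The bounds of these stretches were set after the profile was seen, so they describe it and carry no test.

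The dip from 70 to 11 bp upstream lay below both its upstream neighbour and the inner part of the gene (21 to 70 bp) in 155 of 265 genes in *sae2*Δ (58.5%), 120 in *ndt80*Δ (45.3%), 134 in *tel1*Δ (50.6%) and 119 in *ndt80*Δ *tel1*Δ (44.9%), and in 56 genes in the control (21.1%). The upstream shoulder from 100 to 71 bp leaned on few genes, since without the 10 highest members it stood at 84.3, 89.0, 92.7 and 97.9 RPM per kb against 63.5 in the control. In the dip itself the replicates with *TEL1* had means from 65.8 to 95.7 RPM per kb and those without *TEL1* from 93.8 to 122.8, so the ranges overlapped slightly. From 31 to 200 bp downstream the strand of the tRNA gene held 54.0% of the reads in *sae2*Δ (range 53.5% to 54.6%) and 48.9% in *tel1*Δ (48.5% to 49.5%), against 57.9% in the control. Without the 10 highest members these shares were 57.5% and 55.0%, and the ranges then overlapped.

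**Figure D3:**
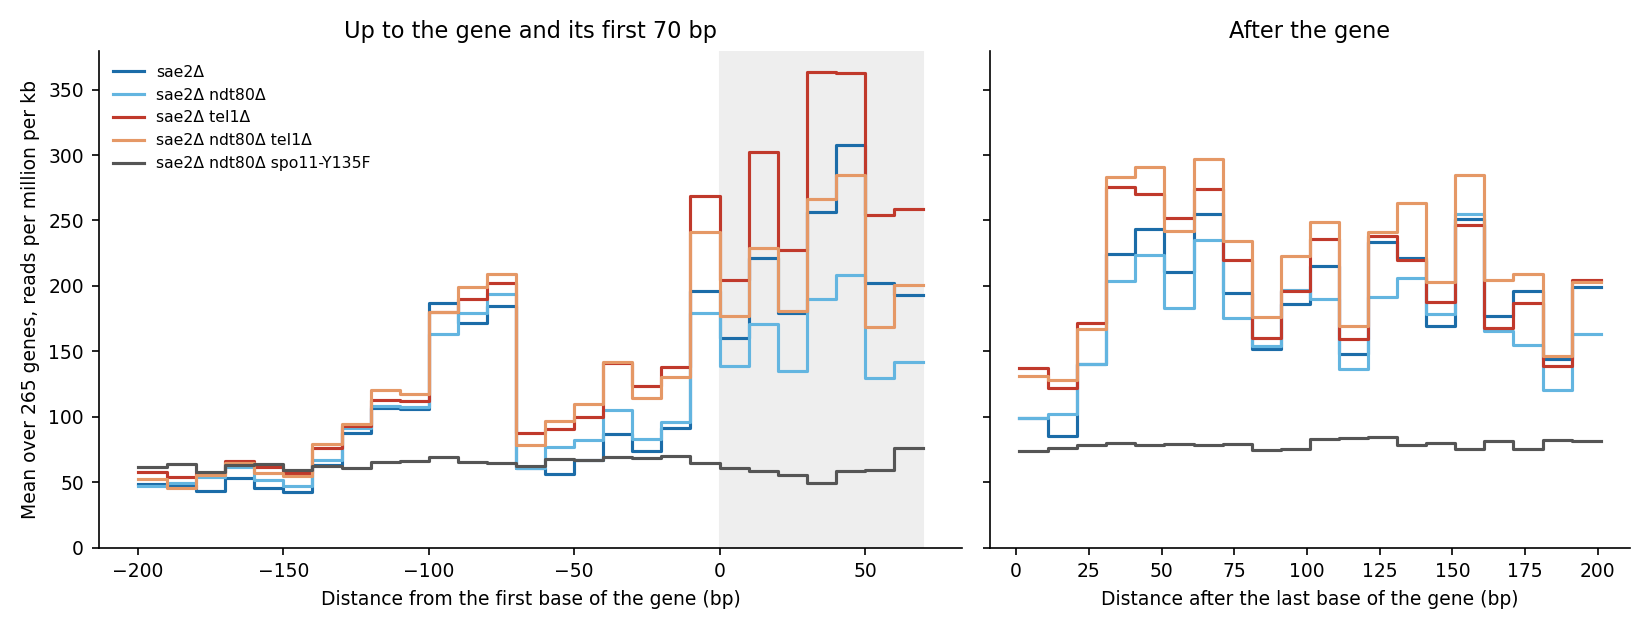
Mean level over 265 tRNA genes in RPM per kb (y axis) in 10 bp steps, by distance from the first base of the gene (left, gene shaded) and from the last base (right), with 1 line per genotype. The 4 Spo11-active genotypes show a shoulder from 100 to 71 bp upstream, a dip from 70 to 11 bp upstream and a rise at the first base, while the *spo11-Y135F* control stays near 50 to 85 throughout.

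The bodies differed widely in level. The 10 highest bodies of a replicate made up on average 33.5%, 30.0%, 35.3% and 35.4% of the summed RPM per kb of all bodies in the 4 genotypes. In the control they made up 6.76%. Bodies ranged from 7.15 to 2858 RPM per kb in *sae2*Δ and from 13.7 to 4904 in *tel1*Δ, but from 14.3 to 134 in the control, and 134, 123, 151 and 131 of the 265 bodies exceeded the genome mean, against 43 in the control. The body was the highest of the 21 bins in 62, 45, 74 and 46 genes (23.4%, 16.98%, 27.9% and 17.4%), against 2 genes (0.755%) in the control.

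Bodies at least 2 times as high as in the control numbered 103 in *sae2*Δ (38.9%), 84 in *ndt80*Δ (31.7%), 122 in *tel1*Δ (46.0%) and 103 in *ndt80*Δ *tel1*Δ (38.9%). Of 73 bp tiles over the rest of the genome, 6.44%, 6.53%, 6.01% and 7.17% reached this level. The median body ratio to the control was 1.42, 1.32, 1.64 and 1.38, and the median tile ratio was 0.244, 0.396, 0.402 and 0.261. Of the 265 bodies, 73 reached it in all 4 genotypes and 130 in none. The control held only 9 to 93 reads in a body (median 41), which limits single ratios.

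Over whole surroundings the contrast with the genome was small. Surroundings at least 2 times the control numbered 40 (15.1%), 36 (13.6%), 38 (14.3%) and 43 (16.2%) in the 4 genotypes, against 10.6%, 10.1%, 8.24% and 10.5% of 2 kb windows that touched no tRNA gene surroundings. The median ratio was 0.54, 0.66, 0.67 and 0.57 for the surroundings and 0.36, 0.49, 0.46 and 0.37 for the windows, and 27 surroundings reached this level in all 4 genotypes while 214 did in none. Each surrounding held 692 to 2361 control reads.

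Bodies lay in DSB hotspots more often than the genome at large. Of the 3207 hotspots called outside chromosome III in the *ndt80*Δ genotypes, which covered 8.12% of the genome, some touched 84 bodies (31.7%), against 10.1% of 73 bp tiles, and 161 surroundings (60.8%), against 52.6% of tiles of the same length as a surrounding. At the same cut-off, 62 hotspots were called in the control, which touched 0 bodies (0.216% of tiles) and 2 surroundings (0.755%, against 1.06% of tiles), and at a lower cut-off its 505 hotspots touched 0 bodies (1.27% of tiles) and 8 surroundings (3.02%, against 8.49% of tiles). The 84 bodies in a hotspot averaged 515, 363, 675 and 543 RPM per kb with 63.01 in the control. The hotspot calls themselves used the *ndt80*Δ and *ndt80*Δ *tel1*Δ maps behind these averages. The 181 other bodies averaged 65.1, 60.2, 82.2 and 60.6 with 61.2 in the control. A protein-coding gene started within 1 kb of 195 tRNA genes, whose bodies averaged 249, 183, 313 and 255 RPM per kb, and the 70 tRNA genes without such a start averaged 93.3, 81.4, 151 and 98.1, still above their control value of 64.1. How far the nearby promoters contribute to the tRNA gene values was not tested.

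The promoters of protein-coding genes gave a yardstick for these levels. Over the 200 bp upstream of 5515 protein-coding genes the mean was 274.8, 252.9, 221.7 and 260.0 RPM per kb in the 4 genotypes, and 96.3 in the control. The mean tRNA gene body stood at 0.755 of that level in *sae2*Δ (replicates 0.648 to 0.895), 0.656 in *ndt80*Δ (0.446 to 0.821), 1.22 in *tel1*Δ (1.02 to 1.32) and 0.844 in *ndt80*Δ *tel1*Δ (0.490 to 1.05), and at 0.641 in the control. All *tel1*Δ replicates exceeded all replicates of both *TEL1* genotypes, and they overlapped with *ndt80*Δ *tel1*Δ. The 14 genes on chromosomes I and VI carried much of the *tel1*Δ mean, with bodies at 1454 ± 255 RPM per kb there (SD, n = 4), and the other 251 averaged 204 ± 25.0. Against the same promoter mean the 251 stood at 0.650, 0.593, 0.919 and 0.738 in the 4 genotypes and at 0.640 in the control, so that the *tel1*Δ replicates (0.790 to 0.978) no longer exceeded promoters but still lay above all replicates of both *TEL1* genotypes.

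The 10 bodies with most reads included 4 on chromosome VI and 3 on chromosome II. YNCM0027W (chromosome XIII, 504895 to 505008) had 2162, 1851, 2441 and 4325 RPM per kb in the 4 genotypes, against 50.9 in the control. YNCF0011C (VI, 204924 to 204996) had 2295, 973, 4904 and 1685, against 55.7, and YNCF0009C (VI, 191513 to 191613) had 1879, 1317, 4136 and 2120, against 101.2. Both were highest in *tel1*Δ. The others were YNCB0013W, YNCO0018W, *SUF20*, YNCB0012W, YNCK0021W, YNCF0014C and YNCB0017C, and all 10 lay in hotspots. These 10 were picked by their level in these maps, which is given as a description.

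**Figure D4:**
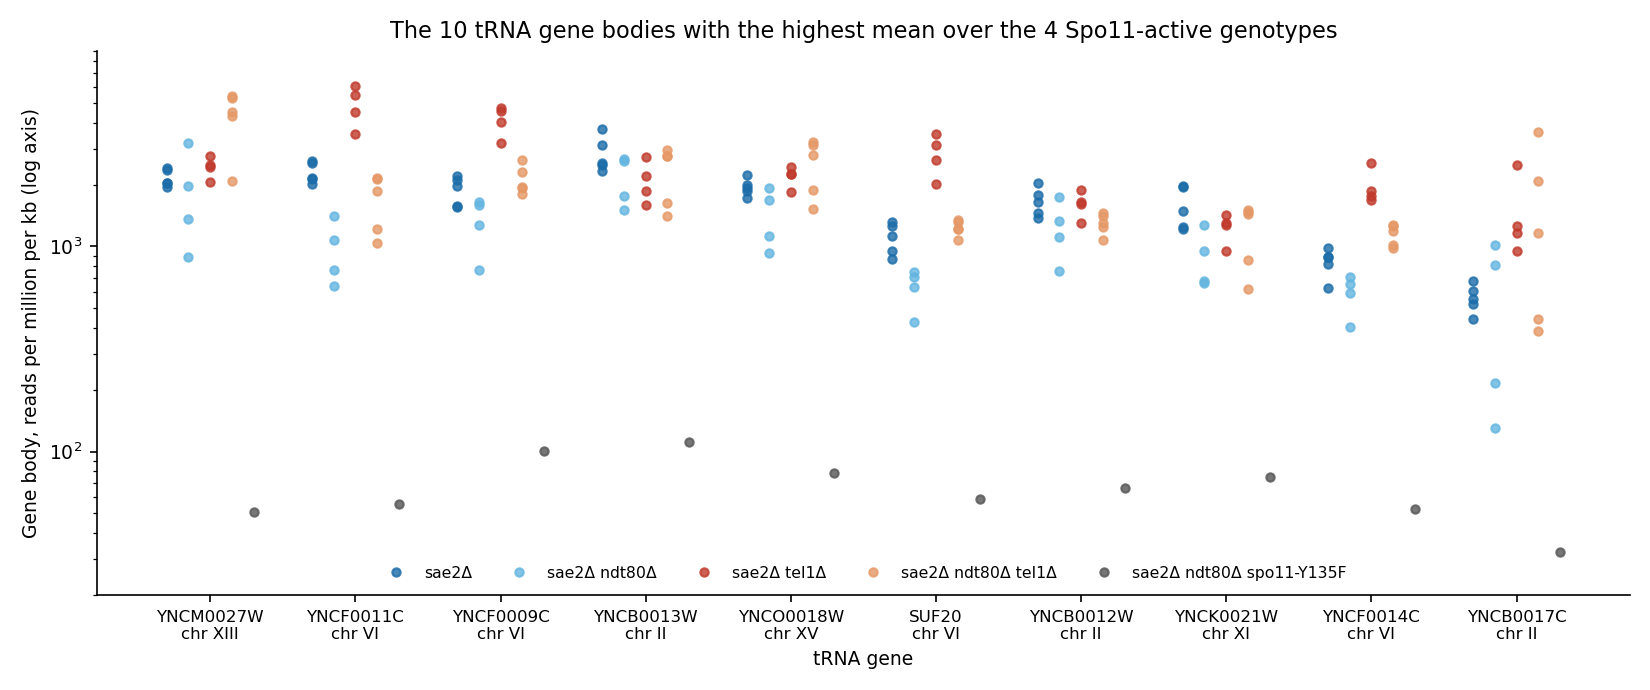
Body level in RPM per kb (y axis, log scale) of the 10 tRNA genes with the highest mean over the 4 Spo11-active genotypes (x axis, with chromosome), with 1 point per replicate, coloured by genotype. All replicates of the 4 genotypes lie above the *spo11-Y135F* control, and the 4 on chromosome VI have their highest mean in *tel1*Δ.

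Copies of 1 tRNA family differed widely, although their bodies are nearly alike in sequence. The initiator methionine genes *IMT1* to *IMT4* had bodies at 90.2, 111, 111 and 153 RPM per kb in *sae2*Δ. The elongator methionine genes *EMT1* to *EMT5* ranged from 17.4 (*EMT2*) to 289 (*EMT4*), and the 8 tyrosine genes known as *SUP* loci, in which nonsense suppressors arise, ranged from 95.5 (*SUP7*) to 1301 (*SUP6*). How reads that match several copies were placed is not given in the sources used here, so reads could have been shared or lost between copies and the level of a single body is uncertain. The control held from 25 reads in *SUP4* to 86 in *SUP5*, so none of the 8 tyrosine genes was without reads there.

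Of the surroundings as a whole, YNCB0017C (II, 643007 to 643078) was highest, with 2379, 1553, 2334 and 2208 RPM per kb in the 4 genotypes, against 68.0 in the control. *IMT2* (XVI, 338848 to 338919) followed with 1833, 1139, 855 and 1105, and *EMT5* (X, 391043 to 391115) with 1077, 723, 1303 and 755. In these 3 the highest bin lay away from the gene, in the fourth 100 bp downstream of YNCB0017C, 800 to 701 bp upstream of *IMT2* and in the outermost 100 bp upstream of *EMT5*. YNCO0018W (XV, 487439 to 487512) had 623, 647, 626 and 700, with its highest bin in the 100 bp before the gene, and YNCF0009C had 489, 436, 876 and 656. The lowest surroundings were those of YNCH0002C (VIII, 85298 to 85371), YNCJ0005C (X, 197313 to 197385) and YNCG0022W (VII, 541850 to 541921), between 10.8 and 20.8 RPM per kb in all 4 genotypes, with 45.3, 48.0 and 59.2 in the control. The control was highest at YNCG0025C (131.7), YNCN0004W (107.6) and YNCK0011C (104.9).

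Differences between genotypes were tested over whole surroundings in 1 fit with the windows of the rest of the genome, and p was adjusted over all 6101 features. Loss of Ndt80 in the presence of Tel1 gave no call: 0 of 265 surroundings differed between *sae2*Δ and *ndt80*Δ with edgeR (25 at an unadjusted p under 0.05, and 0 with DESeq2), as did 0.0% of windows, and when the time-course series was left out 5 were higher and 4 lower, against 2.12% and 3.27% of windows. In simulated data this comparison recovered 29 of 67 features changed 2-fold, so a count of 0 does not show that no surroundings differed. The median log2 ratio was −0.33 over the members and −0.48 over the windows. This shift of all features depended on the scaling: TMM factors brought the window medians of the 4 ratios below from −0.48, 0.41, −0.46 and 0.52 to −0.13, 0.04, −0.13 and 0.18. Replicate 2 of *ndt80*Δ stood apart at *IMT2*, whose surroundings had 1747, 1973, 1695, 1704 and 2045 RPM per kb in *sae2*Δ and 763, 2068, 854 and 869 in *ndt80*Δ.

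In the absence of Tel1 the same question gave 13 surroundings higher in *tel1*Δ than in *ndt80*Δ *tel1*Δ and 10 lower, 4.91% and 3.77% of the members, against 1.73% and 5.11% of windows. Of the 23, 16 had replicate values that did not overlap. Such counts are not given for windows, here or below, so they describe the called members only. YNCF0011C, *SUP51* and YNCF0014C were the highest by the naming rule. YNCF0011C had 804, 769, 688 and 599 RPM per kb in *tel1*Δ and 386, 366, 231, 427 and 541 in *ndt80*Δ *tel1*Δ, groups that did not overlap (log2 ratio 0.87, SE 0.22, adjusted p = 0.0141). *SUP51* (X, 424432 to 424515), another nonsense suppressor locus, had 149.7, 139.5, 139.6 and 114.0 against 86.7, 76.2, 76.9, 86.9 and 84.1 (0.72, SE 0.13, adjusted p = 0.00101), with its highest bin in the 100 bp after the gene. YNCF0014C (VI, 226688 to 226760) had a log2 ratio of 0.70 (SE 0.21, adjusted p = 0.0420), a call that was lost in 19 of 31 alternatives.

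The 3 that were lowest were YNCK0011C (XI, 308144 to 308217), YNCG0009C (VII, 287350 to 287455) and YNCP0022W (XVI, 856902 to 856974), with log2 ratios of −1.18 (SE 0.27, adjusted p = 0.00652), −0.91 (SE 0.23, adjusted p = 0.0174) and −0.84 (SE 0.17, adjusted p = 0.00387). YNCK0011C had 367, 369, 375 and 322 RPM per kb in *tel1*Δ and 967, 1096, 821, 413 and 759 in *ndt80*Δ *tel1*Δ. The groups did not overlap, and replicate 4 of *ndt80*Δ *tel1*Δ stood nearest to the other genotype. In all 3 the highest bin lay outside the gene, 700 to 601 bp upstream of YNCK0011C, 900 to 801 bp upstream of YNCG0009C and in the second 100 bp downstream of YNCP0022W. The split depended on the scaling, since 0 were higher and 13 lower with TMM factors, 0 and 40 with DESeq2, and 32 and 21 after subtraction of background. Windows higher and lower stood at 0.0751% and 5.16% with TMM factors, where 4.91% of members were lower, at 0.15% and 15.2% with DESeq2, where 15.1% of members were lower, and at 6.26% and 12.2% after subtraction of background. With the series as a block 32 were higher and 15 lower, against 7.27% and 6.8% of windows. This block marked only whether a replicate came from any time-course series, and all replicates so marked lack Ndt80. It did not separate the series, so it could not adjust for differences between them. The 23 calls became 55 without replicate 4 of *ndt80*Δ *tel1*Δ (35 higher and 20 lower, against 8.88% and 8.51% of windows), 9, 12 and 6 without its replicates 1, 2 and 3, and 5, 8, 9 and 9 without replicates 1 to 4 of *tel1*Δ, and without the time-course series 133 were higher and 33 lower, when windows also stood at 63.7% and 11.9%.

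Position along the chromosome divided these calls. All 13 higher surroundings lay within 100 kb of a centromere, where 106 members lie, and all 10 lower ones lay among the 159 members farther away. Windows were divided in the same way, with 6.06% higher and 1.24% lower within 100 kb and 0.347% higher and 6.34% lower beyond it. The bodies of the 106 genes near centromeres averaged 206 ± 27.8 RPM per kb in *sae2*Δ, 144 ± 14.4 in *ndt80*Δ, 356 ± 53.9 in *tel1*Δ and 200.9 ± 22.1 in *ndt80*Δ *tel1*Δ, and all *tel1*Δ replicates (278 to 402) exceeded all others. The bodies of the 159 others averaged 209, 165, 213 and 222, and the ranges of *sae2*Δ and *tel1*Δ overlapped. On the short chromosomes I and VI, with 14 members, 4 surroundings were higher and 0 lower, against 11.9% and 0.0% of windows there.

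**Figure D5:**
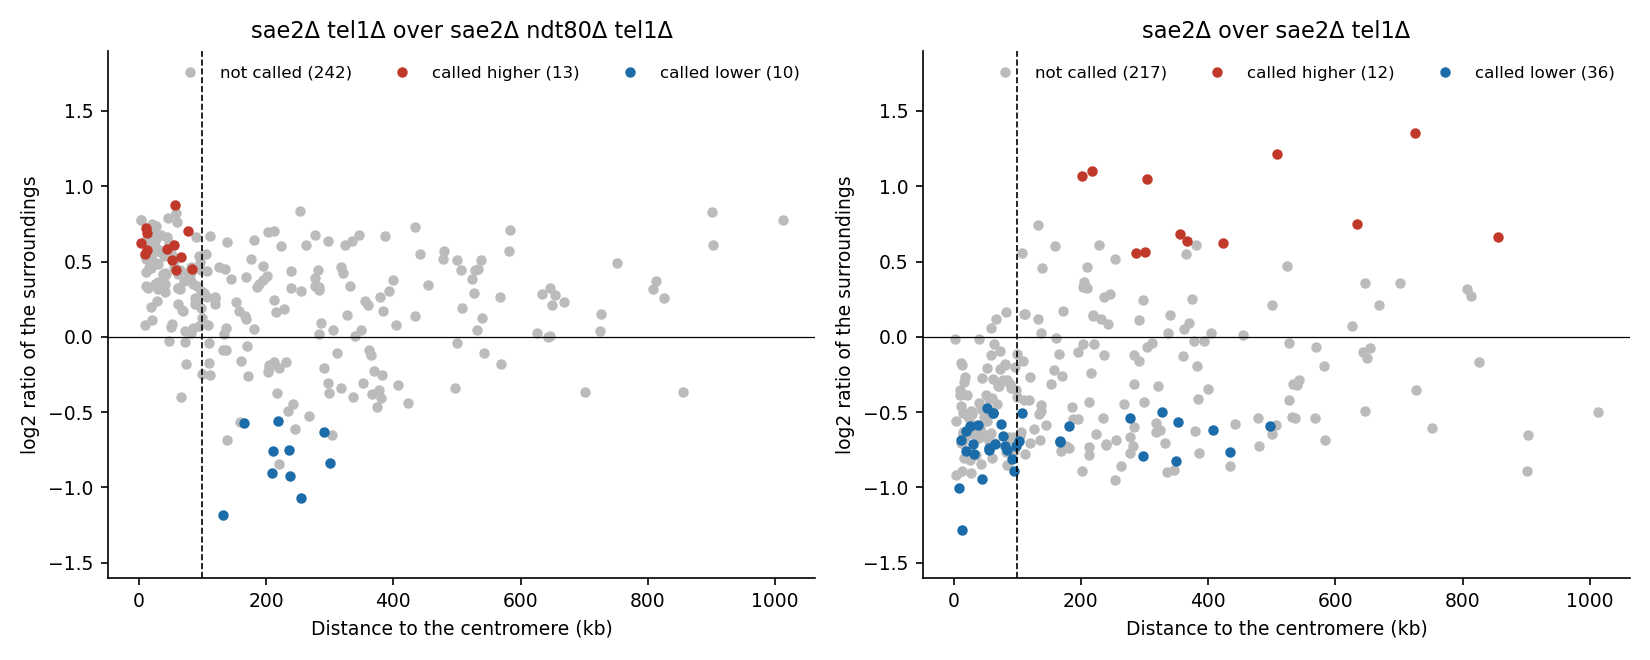
Log2 ratio of each tRNA gene's surroundings (y axis) by distance of the gene from the centromere in kb (x axis) for *tel1*Δ over *ndt80*Δ *tel1*Δ (left) and *sae2*Δ over *tel1*Δ (right), with called genes in colour and the dashed line at 100 kb. On the left the 13 higher genes lie within 100 kb and the 10 lower ones beyond it; with TMM factors or DESeq2 none is called higher there.

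Loss of Tel1 was compared with Ndt80 present first. In *sae2*Δ against *tel1*Δ, 12 surroundings were higher and 36 lower, 4.53% and 13.6% of the members, while of windows 7.49% were higher and 3.4% lower. All 48 had replicate values that did not overlap, a count not given for windows. The median log2 ratio was −0.47 for members and −0.46 for windows, so the whole ratio was shifted by about as much in both. Of the 36 lower surroundings, 24 had a body in a hotspot, 28.6% of the 84 such members, and 1 of the 104 surroundings without any hotspot was called. Hotspots were called by level in *ndt80*Δ and in *ndt80*Δ *tel1*Δ, so a body could enter this class through a high level without Tel1 alone. Surroundings without a hotspot have low levels, which makes a call less likely. The split is therefore given as a description. Calls among windows were also nearly all in those with a hotspot, of which 14.5% were higher and 6.54% lower, against 0.116% and 0.0772% of windows without one, and of windows with a hotspot in their middle 73 bp 19.1% were higher and 5.6% lower. The 104 surroundings without a hotspot averaged 22, 32, 33.2 and 23.7 RPM per kb in the 4 genotypes, against 72.6 in the control. As shares of a library, these values do not show fewer ends there than in the control.

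*SUF20* (VI, 162228 to 162298), a frameshift suppressor locus, had the lowest ratio. Its surroundings had 76.8, 89.7, 88.2, 93.8 and 76.1 RPM per kb in *sae2*Δ and 205.0, 226.9, 226.2 and 170.1 in *tel1*Δ, well apart, with 86.8 in the control (log2 ratio −1.28, SE 0.14, adjusted p = 8.36e-07). Its highest bin was the gene body, which held 871, 1256, 1127, 1312 and 950 RPM per kb in *sae2*Δ and 2653, 3551, 3125 and 2019 in *tel1*Δ, against 58.9 in the control. YNCF0005C (VI, 157916 to 158007; −1.01, SE 0.19, adjusted p = 0.000421) and *SUF17* (XV, 282164 to 282234; −0.94, SE 0.16, adjusted p = 0.000193), a frameshift suppressor locus as well, also had their highest bin in the gene body.

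The 3 highest ratios were those of YNCL0047W (XII, 875376 to 875471), YNCG0046W (VII, 1004216 to 1004287) and *IMT2*. YNCL0047W had 318, 308, 258, 290 and 275 RPM per kb in *sae2*Δ and 139, 99.0, 99.0 and 117 in *tel1*Δ (log2 ratio 1.35, SE 0.18, adjusted p = 1.02e-05), with the highest bin in the second 100 bp upstream of the gene. YNCG0046W had 128.7, 128.5, 108.7, 112.1 and 103.9 against 48.1, 51.3, 54.2 and 46.8 (1.22, SE 0.19, adjusted p = 7.15e-05), and its control value was 86.3. *IMT2* had 848, 866, 841 and 864 in *tel1*Δ, all below the *sae2*Δ values given above (1.10, SE 0.37, adjusted p = 0.0490), and its call was lost in 14 of 31 alternatives. YNCG0046W differed from the other two in that the gene body was the highest bin, at 1627, 1839, 1495, 1688 and 1363 RPM per kb in *sae2*Δ and 395, 483, 358 and 304 in *tel1*Δ.

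Near centromeres 0 members were higher and 23 lower, beyond 100 kb 12 were higher and 13 lower, and the windows gave 1.86% and 8.24% near centromeres and 9.29% and 1.86% farther away. Of the 14 members on chromosomes I and VI, 7 were lower, and 17.9% of windows there were lower too. With TMM factors 9 surroundings were higher and 0 lower, and with DESeq2 14 and 7, when windows stood at 5.39% and 0.207% and at 8.49% and 0.582%, and after subtraction of background the counts were 21 and 51, against 15.9% and 8.42% of windows. Without the time-course series 28 were higher and 83 lower, against 13.6% and 13.7% of windows. The 48 calls became 29, 30 and 29 without replicates 1, 2 and 3 of *tel1*Δ. In these fits 5.86%, 6.10% and 5.88% of windows were higher and 1.95%, 2.12% and 2.01% lower.

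With Ndt80 absent, 14 surroundings were higher and 17 lower in *ndt80*Δ than in *ndt80*Δ *tel1*Δ, 5.28% and 6.42% of the members, against 8.26% and 4.23% of windows. Of the 31, 15 had replicate values that did not overlap, a count again not given for windows. YNCG0046W was again among the higher ones, with 105.1, 107.3, 91.9 and 90.8 RPM per kb in *ndt80*Δ and 47.1, 34.3, 58.9, 56.6 and 22.1 in *ndt80*Δ *tel1*Δ (log2 ratio 1.17, SE 0.19, adjusted p = 0.000119). YNCB0002W (II, 36398 to 36488) had 64.1, 76.4, 47.7 and 39.4 against 12.4, 13.6, 25.8, 34.3 and 10.6 (1.56, SE 0.30, adjusted p = 0.000752), and YNCB0001W (II, 9583 to 9666) had a log2 ratio of 1.27 (SE 0.25, adjusted p = 0.000994). Both lie towards the left end of chromosome II, whose left arm also carries *TEL1*. Whether their position bears on these ratios was not tested.

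*SUP2* (IV, 946312 to 946400), a tyrosine tRNA gene, was the lowest by the naming rule, with 69.4, 60.8, 76.9 and 69.1 RPM per kb in *ndt80*Δ and 146.0, 131.6, 124.1, 89.8 and 106.7 in *ndt80*Δ *tel1*Δ (log2 ratio −0.79, SE 0.14, adjusted p = 0.000339). The same gene had 63.97, 61.9, 60.4, 68.4 and 59.0 in *sae2*Δ and 101.3, 92.3, 96.6 and 88.7 in *tel1*Δ, so that no replicate with *TEL1* reached any replicate without it. YNCG0031W (VII, 731137 to 731210; −0.78, SE 0.19, adjusted p = 0.00556) and YNCG0027W (VII, 661749 to 661820; −0.76, SE 0.15, adjusted p = 0.000730) followed. YNCG0027W had 76.2, 64.5, 81.5 and 88.8 against 162, 127, 154, 108.0 and 108.1.

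With the series as a block 23 were higher and 20 lower, against 13.5% and 6.18% of windows. The 31 calls became 59 without replicate 4 of *ndt80*Δ *tel1*Δ (33 higher and 26 lower, against 18.5% and 6.85% of windows). They became 20 without its replicate 1, against 5.93% and 2.89% of windows. Without the time-course series 106 were higher and 41 lower while 64.7% and 9.2% of windows were. With TMM factors 6 were higher and 15 lower and with DESeq2 7 and 25, against 3.04% and 2.8% and 3.98% and 5.58% of windows. Whether loss of Ndt80 acted differently with and without Tel1 was tested as an interaction, which called 0 of 265 surroundings (47 at an unadjusted p under 0.05, 2 with DESeq2) and 0.225% of windows as higher. Over windows the median of this term was −0.78 on the log2 scale, and over members −0.54. These medians depended on the scaling. They were −0.097 over windows and 0.16 over members with TMM factors, and −0.084 and 0.18 with DESeq2. In simulated data the interaction test recovered 7 of 67 features changed 2-fold, so its count of 0 does not show that no difference exists. With the time-course series as a block it called 3 higher and 4 lower, against 2.05% and 0.789% of windows. Without replicate 4 of *ndt80*Δ *tel1*Δ it called 10 and 24, against 3.94% and 5.54% of windows, and without the time-course series 27 and 148, 10.2% and 55.8% of the members, against 10.2% and 65.9% of windows.

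The gene bodies were also tested alone, in a fit with the same windows, which was added after the values had been seen, and the genes named from it were chosen in the same way. Of the 265 bodies, 252 held enough reads to be tested. *tel1*Δ exceeded *ndt80*Δ *tel1*Δ in 5 bodies and was lower in 0, against 1.6% and 4.83% of windows, and all 5 (YNCF0011C, *SUF20*, *SUP6*, YNCF0009C and YNCF0014C) lie on chromosome VI. With TMM factors edgeR called 0 bodies (21 at an unadjusted p under 0.05) and 0.0751% and 4.23% of windows. Without replicate 4 of *ndt80*Δ *tel1*Δ it called 14 bodies, and the share of windows in that fit is not given. The body of YNCF0011C had 5488, 6050, 4534 and 3545 RPM per kb in *tel1*Δ and 2136, 2162, 1222, 1860 and 1043 in *ndt80*Δ *tel1*Δ (log2 ratio 1.54, SE 0.23, adjusted p = 0.000442). That of the tyrosine gene *SUP6* had 1576, 1555, 1333 and 1132 against 775, 676, 545, 699 and 497 (1.13, SE 0.20, adjusted p = 0.00156).

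In *sae2*Δ against *tel1*Δ, 1 body was higher and 12 were lower, against 7.23% and 3.25% of windows, and in *ndt80*Δ against *ndt80*Δ *tel1*Δ, 2 were higher and 11 lower, against 7.91% and 4.04%. In the former 1 was higher and 1 lower with TMM factors, against 5.35% and 0.188% of windows, and in the latter 1 and 19, against 2.97% and 2.69%. The 13 calls of the former became 6 without any one of *sae2*Δ replicates 1, 2, 3 and 7 or *tel1*Δ replicates 1, 2 and 3, 7 without *ndt80*Δ replicate 3, and 8 without *ndt80*Δ *tel1*Δ replicate 3. The 13 of the latter became 36 without *ndt80*Δ *tel1*Δ replicate 4, 23 without its replicate 5, and 8 and 7 without *ndt80*Δ replicates 1 and 3. Shares of windows in these fits are not given, so the changes in count are not set against the genome. *EMT5* had the lowest ratio in both comparisons, −2.27 (SE 0.50, adjusted p = 0.00284) and −2.17 (SE 0.52, adjusted p = 0.00645). Its body had 123.5, 138.0, 99.1, 99.0 and 75.7 RPM per kb in *sae2*Δ and 162.5, 137.8, 74.2 and 55.2 in *ndt80*Δ, near the control value of 77.9. In *tel1*Δ it had 710.8, 457.9, 472.6 and 438.5, and in *ndt80*Δ *tel1*Δ 646.6, 515.4, 498.7, 321.4 and 451.7, with no overlap. The other elongator methionine genes had no such split, with *EMT4* at 289, 226, 321 and 303 and *EMT1* at 19.03, 31.4, 21.4 and 20.99.

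YNCG0046W was the body with the opposite sign in both comparisons, with log2 ratios of 2.06 (SE 0.35, adjusted p = 0.000222) and 1.63 (SE 0.33, adjusted p = 0.00171). *EMT5*, *SUF20*, YNCF0011C, YNCF0009C, YNCF0014C and YNCG0039W were lower with *TEL1* in both. These comparisons use different libraries. The pairs that share a genotype, such as *tel1*Δ over *ndt80*Δ *tel1*Δ and *sae2*Δ over *tel1*Δ, share its replicates.

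The 4 other genes transcribed by RNA polymerase III that were measured were *RPR1*, the RNA of RNase P, *SCR1*, the RNA of the signal recognition particle, *SNR6*, the U6 RNA, and *SNR52*, a small nucleolar RNA. The surroundings of *RPR1* (V, 117667 to 118035) had 152 and 151 RPM per kb in *sae2*Δ and *ndt80*Δ and 251 and 240 in *tel1*Δ and *ndt80*Δ *tel1*Δ, and both ratios across *TEL1* were called (−0.72, SE 0.21, adjusted p = 0.0258, and −0.67, SE 0.22, adjusted p = 0.0420). These calls held in 21 and 12 of 31 alternatives. The other 3 were not called in any comparison. *SNR6* was low throughout, at 14.6, 26.0, 24.4 and 15.3 RPM per kb with 68.1 in the control.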

How the data were processed

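CC-seq maps of 21 libraries of SK1 yeast, 6 h into meiosis, were used. The authors aligned Read 1 with Bowtie2 and their TermMapper scripts to an R64-based reference with the *HIS4*::*LEU2* and *leu2*::*hisG* inserts and deposited the raw counts of read ends at each base of each strand; mapping-quality filters and the treatment of duplicates and of reads with several matches are not given in the sources used here. Intervals for counting error are not given, and SDs are between replicates.

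Libraries that share a replicate number count as 1 sample, so that the 4 genotypes had 18 replicates. Counts of both strands were summed over each tRNA gene (RefSeq, R64; strand from the locus tag) and 100 bp bins to 1 kb on both sides. Levels are per 1000000 nuclear reads outside the rDNA. Windows of 2 kb tiled the genome outside chromosome III, and percentages of windows are over those that touch no member surroundings. Hotspots were stretches where the mean map of a genotype, smoothed with a Hann window of 201 bp, passed a cut-off, merged over gaps under 200 bp and kept from 25 bp and 25 reads, and those of *ndt80*Δ and *ndt80*Δ *tel1*Δ were joined. The quasi-likelihood test of edgeR 4.0.16 (R 4.3.3) was run on the counts (filterByExpr, nuclear reads outside the rDNA as library size, all 18 replicates in 1 model), with Benjamini-Hochberg adjustment over all features and a threshold of 0.05. The tests were tried on simulated data with known changes. For *sae2*Δ over *ndt80*Δ they recovered 11 of 67 features changed 1.5-fold, 29 of 67 changed 2-fold and 39 of 66 changed 4-fold. For the interaction they recovered 3 of 67, 7 of 67 and 35 of 66. The other comparisons recovered 20 to 25 of 67 changed 2-fold and 43 to 48 of 66 changed 4-fold. Small changes, and some as large as 4-fold, could therefore go uncalled. DESeq2 1.42.0 and TMM factors were alternatives, and other steps used Python 3.11.15, numpy 2.4.6, pandas 2.3.3 and matplotlib 3.10.9.

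The samples of *sae2*Δ and its *ndt80*Δ derivative with the same replicate number deviated together (r = 0.631, 0.713 and 0.822). Equal numbers in the other comparisons gave r from −0.844 to 0.862, so such values cannot show a pairing. The block changed no call for *sae2*Δ over *ndt80*Δ, but that ratio had 0 calls without it. Genes were named by a rule: for each of the 4 ratios the 3 largest in each direction with an adjusted p under 0.05 and replicates that do not overlap, the 5 highest and 3 lowest surroundings among members that do not overlap another, the 3 highest in the control, and the other RNA polymerase III genes. The members, lists and tests were chosen with earlier results of these data known.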

Additional observations from a re-analysis of the deposited data

Results flagged for a closer look

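Of 132 groups of replicates (30 named genes and 3 mean levels, in 4 genotypes each), 5, all of named genes, had 1 replicate that stood far from the others by Dixon's criterion, and chance alone gives about 1 in 20. The surroundings of *IMT2* had 2068 RPM per kb in *ndt80*Δ replicate 2, when the others had 763 to 869. Those of YNCF0009C had 1342 in *ndt80*Δ *tel1*Δ replicate 5, against 458 to 550 in the others. In *tel1*Δ, YNCK0011C had 321.8 in replicate 4 (others 367 to 375), YNCB0001W had 22.5 in replicate 1 (others 31.04 to 32.7) and YNCN0004W had 40.1 in replicate 1 (others 50.5 to 51.9).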

How the results depend on the processing

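The surroundings called numbered 0 for the Ndt80 ratio with Tel1 (*sae2*Δ over *ndt80*Δ), 23 for the Ndt80 ratio without Tel1, 48 for the Tel1 ratio with Ndt80 (*sae2*Δ over *tel1*Δ), 31 for the Tel1 ratio without Ndt80 and 0 for the interaction, and the counts below are in that order. Leaving out the time-course series gave 9, 166, 111, 147 and 175. TMM factors gave 13 and 9 in place of 23 and 48, and DESeq2 gave 40 and 21 and 2 for the interaction. Subtraction of background gave 53 in place of 23, 49 in place of 31 and 3 for the interaction. Beside the 49, 16.7% of windows were higher and 8.15% lower. Fits of only the 2 genotypes compared gave 2, 204 in place of 48 and 8 in place of 31. Windows higher and lower stood at 0.132% and 1.03% beside the 2, and at 3.78% and 1.43% beside the 8. In the fit with 204, 13.2% of members were higher and 63.8% lower, against 17.1% and 57.8% of windows. The replicate block gave 13 in place of 23 and 31 in place of 48, where equal numbers did not pair the samples (r from −0.0125 to 0.746 and from −0.549 to 0.545; from −0.844 to 0.862 for the Tel1 ratio without Ndt80). The series as a block, which did not separate the series, gave 47 in place of 23 and 7 for the interaction. Each library as its own replicate gave 39 in place of 23, against 2.91% and 7.04% of windows, and 3 for the interaction, against 1.05% and 0.0188%. For bodies alone (0, 5, 13, 13 and 0), TMM factors gave 0, 2 and 20 for the middle 3, the replicate block gave 6 for the Tel1 ratio with Ndt80, subtraction of background gave 28, 30 and 20 for the middle 3, and leaving out the time-course series gave 17, 66, 55, 69 and 54. Windows higher and lower stood at 5.99% and 2.05% beside the 6. Beside the 28, 30 and 20 they stood at 6.37% and 12.3%, 16.0% and 8.57%, and 16.9% and 8.22%. Beside the 17, 66 and 55 they stood at 2.07% and 3.32%, 63.9% and 11.85%, and 13.6% and 14.1%. Beside the 69 and 54 they stood at 64.9% and 9.13%, and 10.1% and 66.0%. The cause of the differences between settings was not tested. Leaving out 1 replicate gave 0 to 3, 5 to 55, 29 to 56, 20 to 59 and 0 to 34 surroundings and 0 to 2, 4 to 14, 6 to 16, 7 to 36 and 0 to 6 bodies. These ranges count members only, and in the fits of surroundings the shares of windows changed too. The highest counts of both ratios that use *ndt80*Δ *tel1*Δ and of the interaction came without *ndt80*Δ *tel1*Δ replicate 4.

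With 1 replicate left out, body means in the 4 genotypes were 198.9 to 215.5, 147.1 to 162.7, 260.0 to 288.0 and 201.7 to 227.5 RPM per kb, upstream means 81.96 to 83.18, 80.42 to 84.67, 85.08 to 86.76 and 81.03 to 83.63, downstream means 105.8 to 107.2, 98.76 to 102.7, 112.2 to 114.3 and 108.9 to 113.1, and surroundings at 2 times the control 36 to 41, 33 to 38, 36 to 40 and 39 to 45. Medians in place of means gave 80.5, 73.7, 101.0 and 78.2 for bodies, 26.4, 37.7, 37.8 and 31.03 upstream, 37.2, 48.6, 48.8 and 42.2 downstream and 0.512, 0.650, 0.669 and 0.582 for the ratio of the surroundings to the control. Subtraction of background gave bodies at 239.6, 201.3 and 365.6 in *sae2*Δ, *ndt80*Δ and *tel1*Δ and downstream means of 112.5, 110.5, 128.6 and 119.0. Without overlapping members upstream means were 89.6, 88.4, 91.1 and 88.5, and downstream means 111.8 in *sae2*Δ and 116.6 in *tel1*Δ. Masking of Ty and LTR elements and a background-subtracted ratio to the control were not run, since no annotation of such elements was given and the control is nearly all background.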
